A study of Mus musculus with 9 samples.

Results

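Interferon-stimulated genes are the genes that cells switch on when they sense interferon, the secreted alarm signal of antiviral defence. Here 39 of them were followed in mouse choroid and retina. They were taken by symbol from the deposited table, where each symbol named a row, and make up 39 of its 54532 genes.

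The study profiled choroidal-retinal flat mounts of C57BL/6 mice by RNA-seq in 3 groups of 3 libraries. Untreated mice were the first group. The second was labelled CNV in its treatment field and wet-AMD in its titles, a model named for wet age-related macular degeneration, in which new vessels grow from the choroid (choroidal neovascularization). The third was labelled BetP-Gel@Ran, and its treatment field names an intravitreal injection of BetP-Gel, a hydrogel, 3 months earlier. Ranibizumab, an antibody fragment against vascular endothelial growth factor A, appears in the series title and not in that field. The labels do not say how CNV was made, whether the BetP-Gel@Ran mice had it, when the other 2 groups were sampled, or whether the libraries of a group came from different animals. Time and treatment therefore cannot be told apart, and the spread between libraries may be technical. Depth was even, at 16990118 to 18753737 reads on genes per library.

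Markers of the labelled tissue were present in all 9 libraries, with summed levels of 1587 to 5494 FPKM for 12 rod genes, 1281 to 1747 for 9 Muller glia genes and 913 to 1377 for 10 pigment epithelium genes. FPKM are fragments scaled by transcript length and library size, so levels can be compared between genes. Markers of other tissues were present as well. The 12 surface epithelium and cornea genes summed to 19987 to 22854 FPKM in untreated, 10659.9 to 11979.8 in CNV and 14119.5 to 17608 in the gel libraries, which do not overlap, and 12 skeletal muscle genes to 4765 to 5247 FPKM in untreated against 798 to 1338 in the other 6 libraries. Untreated replicate 3 stood apart by its lens genes, at 17755 FPKM against 711 and 893 in the other untreated libraries, 109.7 to 249 in CNV and 1605 to 5881 in the gel libraries.

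Type I interferons (alpha and beta) bind the receptor IFNAR1-IFNAR2, type III interferons (lambda) bind IFNLR1-IL10RB, and the type II interferon (gamma) binds IFNGR1-IFNGR2. Receptor-bound JAK kinases phosphorylate transcription factors. A complex that holds STAT2 and IRF9 then binds the interferon-stimulated response element (ISRE), while the response to interferon gamma runs through the gamma-activated sequence (GAS). In the eye, microglia, macrophages, pigment epithelium and Muller glia can all respond to interferon. Among the products of the genes are RNA sensors, enzymes that halt translation or cut RNA, membrane proteins that trap or block viruses, and the GTPases that attack vacuoles holding pathogens.

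The elements can be read in the promoters themselves. The RefSeq promoter table of build GRCm38.p6 held 30 of the 39 members, in 34 windows, and the 250 bases before each start were searched on both strands for the ISRE core GAAANNGAA and the GAS core TTCNNNGAA, where N is any base. The 6 windows below are those of members with a called change between CNV and untreated tissue: 4 with the largest change among those that hold a core, and 2 without a core. Capitals mark the bases of either core on either strand. Each sequence runs 5′ to 3′ in the direction of the gene.
Bst2, chr8:71537473-71537722, minus strand: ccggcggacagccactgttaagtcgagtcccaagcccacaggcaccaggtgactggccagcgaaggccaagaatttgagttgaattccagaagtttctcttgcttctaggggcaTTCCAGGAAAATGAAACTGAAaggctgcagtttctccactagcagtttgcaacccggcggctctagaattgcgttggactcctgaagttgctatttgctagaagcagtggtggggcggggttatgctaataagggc
Oas3, chr5:120777660-120777909, minus strand: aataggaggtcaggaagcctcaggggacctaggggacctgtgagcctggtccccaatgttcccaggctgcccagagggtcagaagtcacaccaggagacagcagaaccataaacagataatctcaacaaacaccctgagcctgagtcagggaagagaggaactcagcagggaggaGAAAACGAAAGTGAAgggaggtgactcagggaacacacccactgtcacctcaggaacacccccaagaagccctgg
Gbp3, chr3:142559794-142560043, plus strand: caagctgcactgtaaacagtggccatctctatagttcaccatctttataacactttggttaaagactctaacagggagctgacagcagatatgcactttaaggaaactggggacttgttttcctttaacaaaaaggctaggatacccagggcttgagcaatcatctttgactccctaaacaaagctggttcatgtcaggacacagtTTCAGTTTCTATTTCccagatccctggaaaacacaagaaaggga
Ifit2, chr19:34550444-34550693, plus strand: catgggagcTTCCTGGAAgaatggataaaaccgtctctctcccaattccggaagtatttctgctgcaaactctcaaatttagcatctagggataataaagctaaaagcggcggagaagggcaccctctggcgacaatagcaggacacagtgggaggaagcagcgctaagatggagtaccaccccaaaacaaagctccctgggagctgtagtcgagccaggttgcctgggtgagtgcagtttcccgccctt
Ifitm3, chr7:141010745-141010994, minus strand: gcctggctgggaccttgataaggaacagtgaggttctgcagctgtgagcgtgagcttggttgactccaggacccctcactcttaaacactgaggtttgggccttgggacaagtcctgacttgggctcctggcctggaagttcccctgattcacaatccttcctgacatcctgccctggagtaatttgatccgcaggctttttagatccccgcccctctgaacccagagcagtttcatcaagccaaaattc
Oasl1, chr5:114922990-114923239, plus strand: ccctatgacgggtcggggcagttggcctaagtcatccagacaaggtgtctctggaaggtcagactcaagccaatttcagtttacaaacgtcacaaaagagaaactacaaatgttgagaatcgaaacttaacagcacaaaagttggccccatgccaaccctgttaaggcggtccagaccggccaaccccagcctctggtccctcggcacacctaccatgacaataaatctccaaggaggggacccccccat
Bst2 holds a GAS core that overlaps the first of 2 overlapping ISRE cores, which start 130 and 124 bases before the gene's start. Oas3 and Gbp3 each hold 2 overlapping ISRE cores, read in Gbp3 on the opposite strand, and Ifit2 holds a GAS core alone. Gbp3 and Ifit2 each have another window, not printed here, that holds neither core. In Ifitm3 and Oasl1 neither string occurred in the window, which says only that these letters are not there.

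Over all members with a window, 17 of 30 (56.7%) held the ISRE core and 7 (23.3%) the GAS core. Of all 27025 genes in the promoter table, 8.18% held the ISRE core and 8.13% the GAS core; per window, of the 32851 in the table, the shares were 7.13% and 7.02%. The ISRE core was found in every class of response to CNV: in 5 of 8 called higher, 1 of 2 called lower and 10 of 19 not called. Isg15, Ifit1 and Ifit3, with 3 ISRE cores each, were not called. These matches describe letters and not bound sites. Dhx58, Ifi27, Mx1, Mx2, Oas2, Parp14, Rtp4, Usp18 and Zbp1 had no entry.

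**Figure D1:**
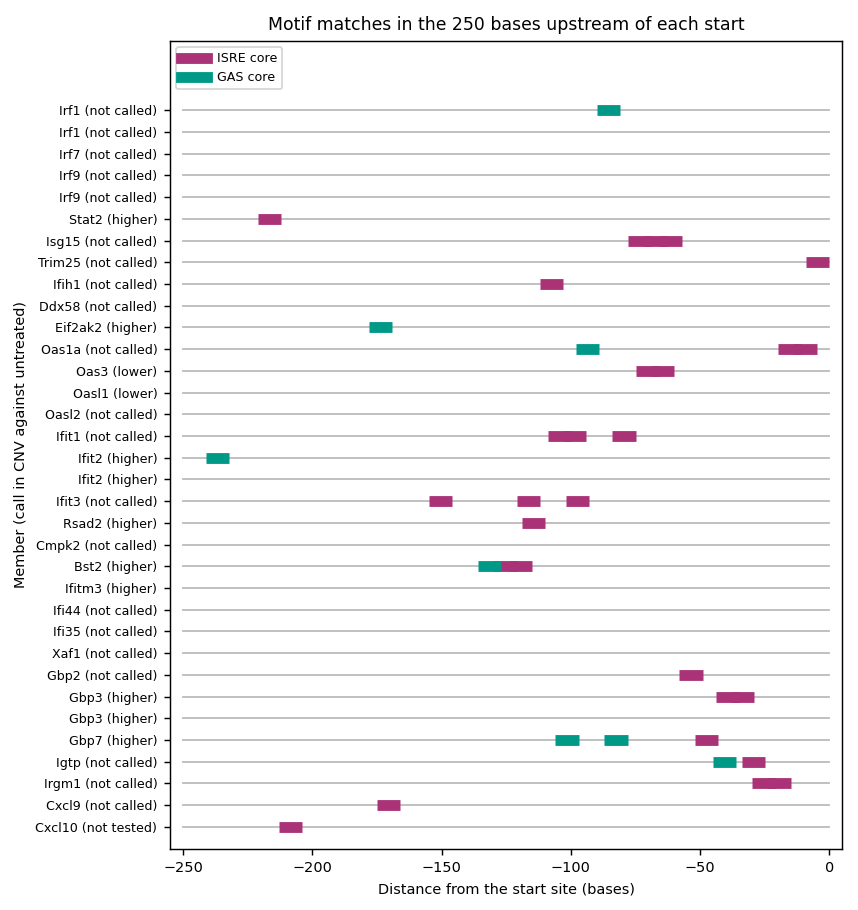
Matches to the ISRE core and the GAS core in the 250 bases upstream of 34 start sites of 30 members; the x axis is the distance from the start in bases, each grey line is a window (4 members have 2), and the label gives the call in CNV against untreated. The 17 members with an ISRE core include members called higher, called lower and not called.

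Levels in untreated tissue spanned a wide range. Isg15, a ubiquitin-like protein attached to other proteins, was the highest at 208.5 ± 16.7 FPKM (SD, n = 3). Ifitm3 followed at 168.9 ± 7.43, Ifit3 at 90.8 ± 4.47, Ifi27 at 82.9 ± 9.32 and Bst2 at 53.8 ± 4.56 FPKM. The first 2 of these did not overlap in any untreated library, whereas Ifit3 (86.8 to 95.6 FPKM) and Ifi27 (73.0 to 91.5 FPKM) did. At the other end, Mx1 (0.732 to 0.982 FPKM), Cxcl10 (0.445 to 0.935) and Mx2 (0.411 to 0.763) were under 1 FPKM in every untreated library.

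In CNV against untreated tissue, the members did not move as a block. Of the 37 tested, 11 (29.7%) rose and 5 (13.5%) fell, with an adjusted p under 0.05 in limma across all 14086 tested genes, and 21 were not called. Over all tested genes 22.5% were called higher and 22.1% lower, so neither share stood far from the background. The median log2 fold change of the tested members was 0.06, against 0.01 for all genes, and ran from -1.23 for Oas2 to 1.52 for Ifitm3. Mx2 and Cxcl10 did not pass the filter of 1 FPKM in 3 libraries. Mx1 passed without any untreated library and is among the 11, so that count followed in part from the filter. Without untreated replicate 3, the library rich in lens RNA, 10 were called higher and 2 lower.

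**Figure D2:**
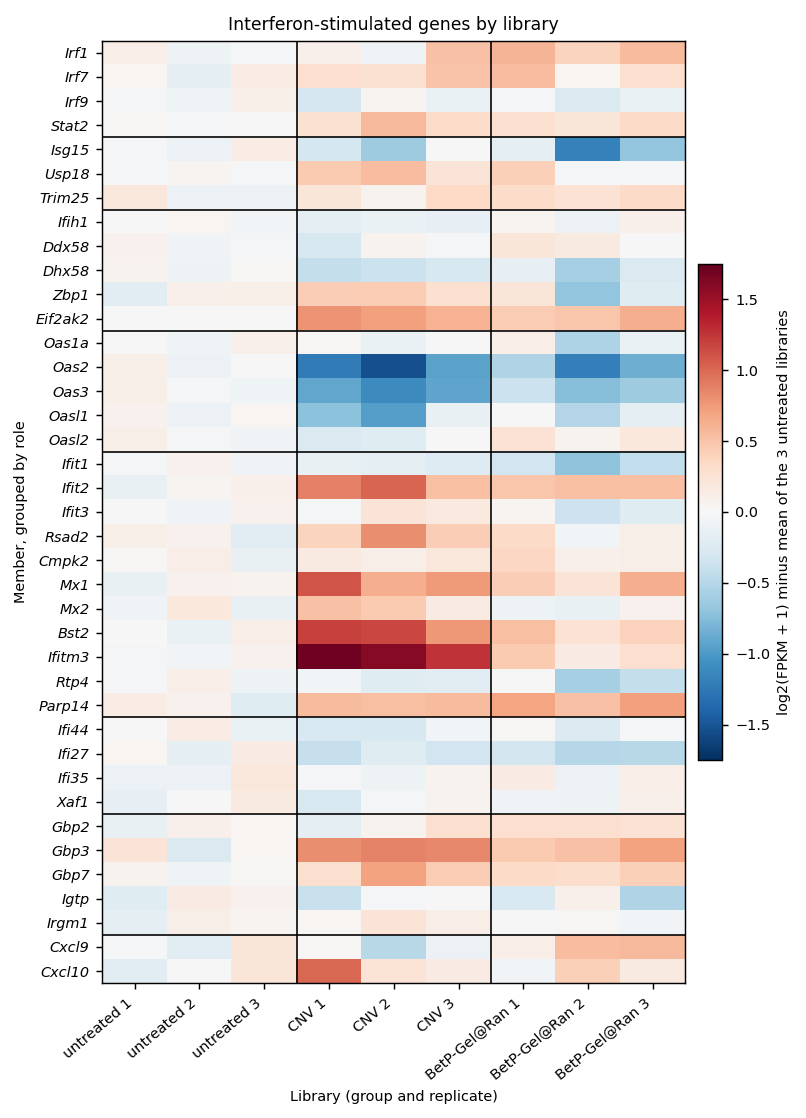
Level of each of the 39 members (rows, grouped by role and separated by lines) in each of the 9 libraries (columns), as log2(FPKM + 1) minus the mean of the 3 untreated libraries. Ifitm3 and Bst2 are the darkest red rows in CNV and Oas2 and Oas3 the darkest blue, while most rows are pale.

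The antiviral effectors held the largest rises: 6 of 10 tested rose and 0 fell by limma's adjusted p, nor did any have an unadjusted p under 0.05 on the lower side. The background for this and each later count by role in CNV was 22.5% higher and 22.1% lower over all tested genes. The 6 include Mx1, which passed the filter without any untreated library. Ifitm3 (ENSMUSG00000025492, chr7:141009586-141010770, minus strand), which keeps viruses from fusing with endosomal membranes, was at 166, 163 and 177 FPKM in the untreated libraries and at 554, 511 and 406 in CNV. Every CNV library was above every untreated one, a log2 change of 1.52 ± 0.13 (SE; limma adjusted p = 3.14e-05). Bst2, or tetherin (ENSMUSG00000046718, chr8:71534255-71537456, minus strand), which holds budding virions on the cell surface, was at 53.9, 49.3 and 58.4 FPKM in untreated and 124.6, 121.9 and 91.7 in CNV. Here too the groups did not overlap, with a log2 change of 1.04 ± 0.13 (limma adjusted p = 2.57e-04). For both, CNV replicate 3 was the lowest of the 3 CNV libraries.

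Ifit2, which binds viral RNA and limits translation, was at 3.44, 4.02 and 4.20 FPKM in untreated and 7.98, 8.91 and 5.99 in CNV libraries (log2 change 0.81 ± 0.12, limma adjusted p = 7.30e-04). Its neighbours on chromosome 19 did not follow: the log2 change was -0.17 ± 0.10 for Ifit1 and 0.12 ± 0.11 for Ifit3, neither called. The difference between neighbours was not itself tested. Mx1, a gene of the dynamin-like GTPase family, went from 0.732, 0.982 and 0.966 FPKM to 3.05, 1.93 and 2.18, on only 47 to 229 reads per library. Its log2 change was 0.83 ± 0.15 (limma adjusted p = 0.00171), and log2 of FPKM + 1 understates changes this close to 0. Mx1 passed the filter through the CNV and gel libraries alone. A higher call therefore followed in part from the filter and is not given as support. Mx2, beside Mx1 on chromosome 16, ran from 0.712 to 1.21 FPKM in CNV, overlapping untreated, and was not tested.

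Parp14, an ADP-ribosyltransferase of the macrodomain family, was at 4.48, 4.25 and 3.32 FPKM in untreated and at 6.34, 6.16 and 6.34 in CNV libraries. The groups did not overlap (log2 change 0.55 ± 0.10, limma adjusted p = 0.00201). Rsad2, or viperin, which makes a chain-terminating nucleotide, was at 1.63, 1.60 and 1.17 FPKM in untreated and 2.21, 3.33 and 2.31 in CNV (log2 change 0.54 ± 0.15, limma adjusted p = 0.0134). Cmpk2, a nucleotide kinase next to it on chromosome 12, was not called at 0.15 ± 0.10, nor was the chaperone Rtp4 at -0.15 ± 0.14.

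**Figure D3:**
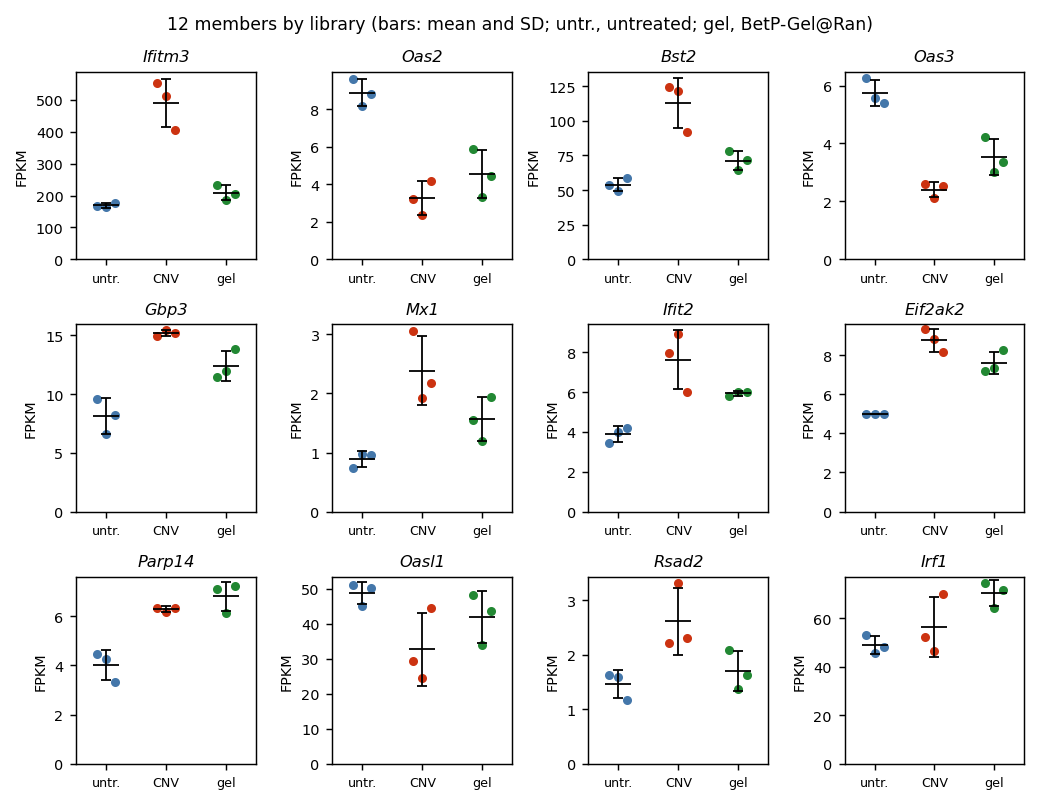
FPKM of the 12 called members with the largest log2 change, by library; each point is a library, the horizontal bar the mean and the whisker the SD over 3 libraries, and every axis starts at 0. CNV libraries lie above untreated for Ifitm3, Bst2, Gbp3, Mx1, Ifit2, Eif2ak2, Parp14 and Rsad2 and below for Oas2, Oas3 and Oasl1.

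The oligoadenylate synthetases make the 2′-5′-linked second messenger of RNase L, and the like proteins Oasl1 and Oasl2 are grouped with them here. Of 5 tested, 3 fell, 2 were not called and 0 rose by limma's adjusted p, and none had an unadjusted p under 0.05 on the higher side. Over all tested genes 22.1% were called lower. Oas2 (ENSMUSG00000032690, chr5:120730333-120749853, minus strand) was at 9.60, 8.17 and 8.82 FPKM in untreated and 3.22, 2.38 and 4.17 in CNV libraries, a log2 change of -1.23 ± 0.19 (limma adjusted p = 7.29e-04). Oas3 (ENSMUSG00000032661, chr5:120753098-120777661, minus strand) was at 6.25, 5.58 and 5.39 in untreated and 2.59, 2.10 and 2.53 in CNV, a log2 change of -0.98 ± 0.11 (limma adjusted p = 1.38e-04). In both genes every CNV library was under every untreated one. Oas1a, the third member in this chromosome 5 cluster, was at 22.4, 21.3 and 24.0 FPKM against 23.0, 20.7 and 22.4, a change of -0.03 ± 0.14. Oas1c, which is outside the members, was called lower and is given under the other observations.

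Oasl1, which holds back Irf7 translation, was at 51.1, 45.0 and 50.0 FPKM in untreated and at 29.2, 24.4 and 44.4 in CNV libraries. CNV replicate 3 lay just under the lowest untreated library, and the change of -0.60 ± 0.20 (limma adjusted p = 0.0353) was no longer called without any 1 untreated library or without CNV replicate 1 or 2, with an adjusted p of up to 0.116 over all alternatives. Oasl2 was not called at -0.16 ± 0.09. Oas2 and Oasl1 overlap unnamed or antisense transcripts on the other strand (Gm43068 and Gm13822), and the library kit does not mark the strand. The same limit holds for Eif2ak2, Usp18, Dhx58 and Irf1, which also overlap a gene on the other strand.

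Among the nucleic acid sensors, Eif2ak2 rose, Dhx58 fell and 3 of 5 were not called. Eif2ak2 encodes PKR, the kinase that shuts down translation on double-stranded RNA. It was at 4.99, 4.97 and 4.99 FPKM in untreated and 9.32, 8.80 and 8.14 in CNV libraries, a change of 0.70 ± 0.08 (limma adjusted p = 1.17e-04). Dhx58 (LGP2), a helicase that modulates the other RNA sensors, changed by -0.36 ± 0.11 (limma adjusted p = 0.0275), a call lost without untreated replicate 1 or 3 or CNV replicate 1 or 2. The RNA helicases Ifih1 (MDA5) and Ddx58 (RIG-I) changed by -0.14 and -0.09 and were not called. Zbp1, the Z-nucleic acid sensor of necroptosis, was at 10.1, 12.5 and 12.5 FPKM in untreated and 16.1, 16.2 and 14.4 in CNV; these did not overlap, yet the change of 0.39 ± 0.19 missed the threshold (limma adjusted p = 0.131).

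Of the GTPases, 2 of 5 rose, against 22.5% of all tested genes. Gbp3 was at 9.62, 6.59 and 8.23 FPKM in untreated and 14.9, 15.5 and 15.2 in CNV libraries, a change of 0.84 ± 0.12 (limma adjusted p = 5.12e-04), and Gbp7 changed by 0.47 ± 0.11 (limma adjusted p = 0.00556). Gbp2 is in the same chromosome 3 cluster and the most abundant of the family here. It was at 29.2, 34.2 and 32.9 FPKM in untreated and 28.5, 33.5 and 39.1 in CNV, which overlap. Igtp and Irgm1, immunity-related GTPases that are targets of interferon gamma, changed by -0.14 and 0.12 and were not called.

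Of the 4 transcription factors, 1 was called higher and 3 were not called, with a median log2 change of 0.26. Stat2 rose by 0.39 ± 0.09 (limma adjusted p = 0.00603), from 4.67 ± 0.110 to 6.43 ± 0.844 FPKM (SD, n = 3). Irf7, the amplifier of interferon alpha transcription, was at 42.0 ± 4.23 and 53.8 ± 4.89 FPKM, a change of 0.35 ± 0.13 that just missed the threshold (limma adjusted p = 0.0565) and passed it with voom on recovered reads, quantile normalization, own-total scaling, the replicate block, or a fit of the 2 groups alone. Irf1, the interferon gamma target, was at 53.0, 45.9 and 48.1 FPKM in untreated and 52.1, 46.7 and 70.3 in CNV libraries, where replicate 3 stood alone. Irf9 changed by -0.12 ± 0.10.

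In the ISG15 system, Usp18, which strips ISG15 and blocks IFNAR signalling, rose by 0.41 ± 0.13 (limma adjusted p = 0.0263), a call lost without any 1 untreated library or without CNV replicate 1 or 2. Isg15 itself was at 205, 194 and 227 FPKM in untreated and 168, 135 and 210.0 in CNV libraries, which overlap (-0.31 ± 0.24). The remaining inducible genes included a single call, Ifi27, a small hydrophobic membrane protein. It was at 84.2, 73.0 and 91.5 FPKM in untreated and 62.3, 71.3 and 65.1 in CNV, a change of -0.31 ± 0.10 (limma adjusted p = 0.0289) that was lost without untreated replicate 1 or 3 or CNV replicate 1 or 3. The chemokines that draw T cells through CXCR3 were low: Cxcl9 was at 1.37, 1.08 and 1.79 FPKM in untreated and 1.42, 0.718 and 1.23 in CNV, and Cxcl10 reached 2.33 FPKM in CNV replicate 1 alone. Markers of T and NK cells were low too, with 13 of 16 under 1 FPKM in every library.

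In BetP-Gel@Ran against CNV, 2 of 37 tested members were called higher and 2 lower (5.41% each), against 5.81% and 8.27% of all tested genes, and the median was -0.09 against 0.00. This comparison shares its CNV libraries, with opposite sign, with CNV against untreated. Ifitm3 was at 233, 187 and 206 FPKM in the gel libraries, all under the lowest CNV library, a change of -1.22 ± 0.13 (limma adjusted p = 0.00134) that kept its call in all 15 alternatives. Bst2 was at 78.1, 64.4 and 71.5 FPKM, also without overlap, a change of -0.64 ± 0.13 (limma adjusted p = 0.0170). The Bst2 call was lost without CNV replicate 1 or 2 or gel replicate 2 or 3, with an adjusted p of up to 0.0661.

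The members that were called higher in the gel libraries were both oligoadenylate synthetases. Oas3 was at 4.21, 3.02 and 3.37 FPKM, above all CNV libraries (0.41 ± 0.11, limma adjusted p = 0.0402), and Oasl2 was at 38.4, 33.6 and 36.6 against 26.9, 27.7 and 31.9 (0.32 ± 0.09, limma adjusted p = 0.0431). Both calls were lost without CNV replicate 1 or 2 or any 1 gel library. Oas2, at 5.85, 3.30 and 4.44 FPKM, overlapped CNV and was not called at 0.37 ± 0.19.

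In BetP-Gel@Ran against untreated, 10 of 37 (27%) were higher and 5 (13.5%) lower, against 16.1% and 18.1% of all tested genes, with a median of 0.12 against -0.01; without untreated replicate 3 the counts were 5 and 4. This comparison shares its untreated libraries with the first one. Mx1, which passed the filter without any untreated library, is among the 10. Parp14 was at 7.09, 6.13 and 7.20 FPKM in the gel libraries, above every untreated library (0.64 ± 0.10, limma adjusted p = 0.00165). These levels overlapped those of CNV, and the change against CNV was not called (0.10 ± 0.10). Eif2ak2 was at 7.17, 7.36 and 8.26 FPKM, above every untreated library (0.52 ± 0.08, limma adjusted p = 0.00121). Ifit2 was at 5.80, 6.01 and 6.01 (0.51 ± 0.12) and Gbp3 at 11.4, 11.9 and 13.8 (0.56 ± 0.12), both called.

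Oas2 and Oas3 were under untreated, by -0.86 ± 0.19 (limma adjusted p = 0.00741) and -0.58 ± 0.11 (limma adjusted p = 0.00399). Ifi27 was at 65.6, 58.0 and 58.4 FPKM (-0.44 ± 0.10, limma adjusted p = 0.00925). Ifit1 was called lower here and in neither of the other comparisons, at 33.0, 25.2 and 30.7 FPKM against 41.2, 44.2 and 40.2 in untreated (-0.49 ± 0.10, limma adjusted p = 0.00517). These 4 calls, and those of Parp14, Eif2ak2, Ifit2 and Gbp3, kept their side of the threshold in every alternative that tested them. Against CNV, Ifit1 was lower in every gel library (-0.32 ± 0.10). That change missed the threshold (limma adjusted p = 0.0567) but passed it with the filter of 5 FPKM, own-total scaling, voom or without gel replicate 1. Ifitm3 was not called against untreated at 0.30 ± 0.13 (limma adjusted p = 0.0951), but was with quantile normalization, own-total scaling or only the 2 groups compared.

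Irf1 and Trim25, the E3 ligase of RIG-I, were called in this comparison and not in the other 2. Irf1 was at 74.7, 64.5 and 71.9 FPKM, above all untreated libraries (0.51 ± 0.14, limma adjusted p = 0.0198), a call lost without untreated replicate 2 or 3 or gel replicate 1 or 3; it was also called higher against CNV once CNV replicate 3 was left out. Trim25 changed by 0.31 ± 0.10 (limma adjusted p = 0.0444), lost without untreated replicate 2 or 3 or any 1 gel library. It was called in CNV against untreated with quantile normalization, own-total scaling or without untreated replicate 1. The calls of Mx1 (1.55, 1.20 and 1.94 FPKM), Bst2, Stat2, Gbp7 and Dhx58 against untreated also ended when a single library was left out: any of the 6 for Stat2 and Gbp7, all but gel replicate 2 for Mx1, untreated replicate 1 or 2 or gel replicate 1 or 3 for Bst2, and any untreated library or gel replicate 2 or 3 for Dhx58. Cxcl9, at 1.59, 2.50 and 2.54 FPKM, was not called against untreated (limma adjusted p = 0.0990) or against CNV (limma adjusted p = 0.0501). It was called against CNV with quantile normalization, with voom or without gel replicate 1, and against untreated without gel replicate 1.

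**Figure D4:**
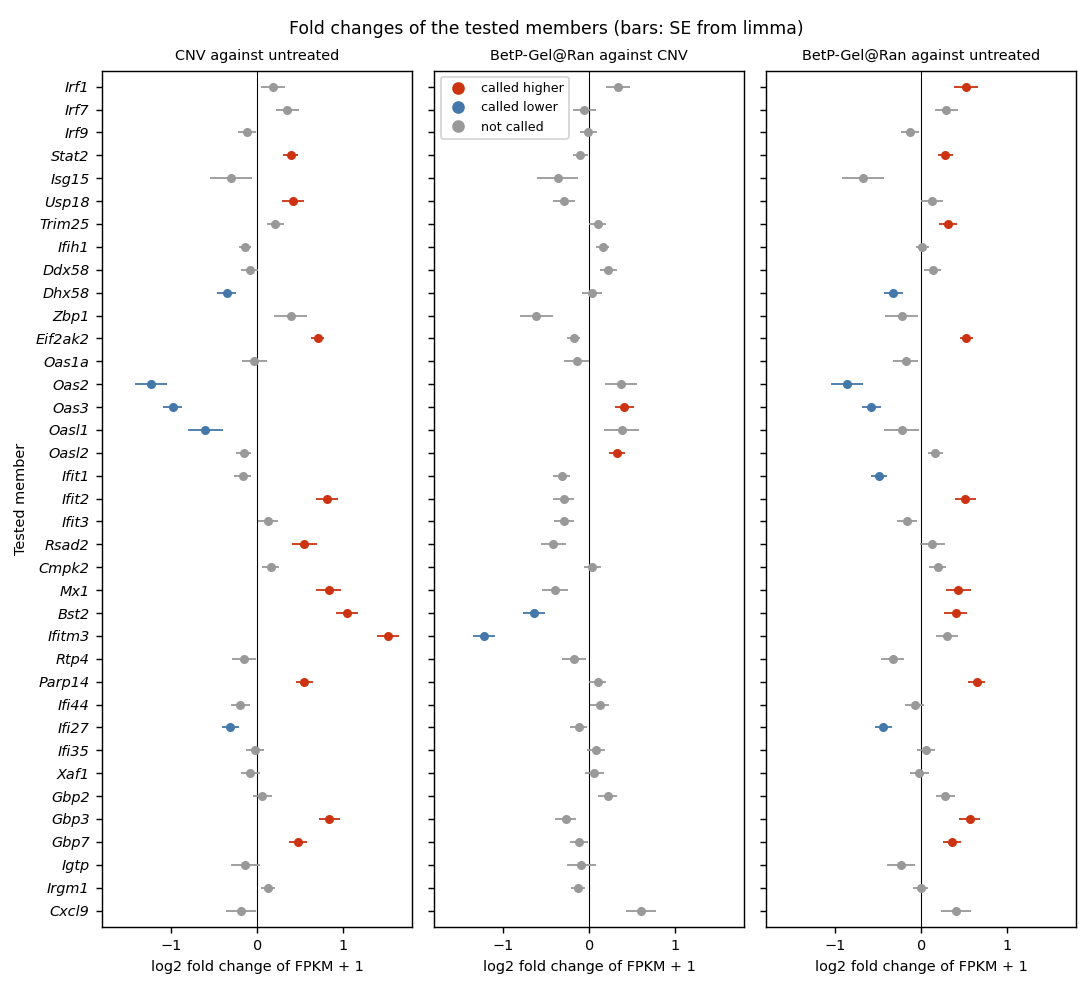
log2 fold change of FPKM + 1 for the 37 tested members in the 3 comparisons (x axis), with the SE from limma as bars; red is called higher, blue lower and grey not called. In the middle panel only Ifitm3 and Bst2 are blue and only Oas3 and Oasl2 red.

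The gel libraries differed among themselves. Gel replicate 2 had the lowest level of all 9 libraries for 9 members (Isg15, Dhx58, Zbp1, Oas1a, Ifit1, Ifit3, Rtp4, Ifi27 and Ifi35) and the highest for 0 of 39. Gel replicate 1 was the lowest for 0 members and the highest for 7. Isg15 shows the range, at 186, 91.5 and 128 FPKM, and its change of -0.68 ± 0.24 against untreated missed the threshold (limma adjusted p = 0.0559), but passed it with the filter of 5 FPKM, with the replicate block and without gel replicate 1. Zbp1 was at 13.7, 6.86 and 9.91 FPKM, and its change against CNV of -0.62 ± 0.19 did too (limma adjusted p = 0.0626), but passed it with voom and without gel replicate 1. Gbp2, by contrast, was at 39.6, 39.1 and 38.3.

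The pathway above these genes was followed through lists of ligands, receptors, signalling proteins and inhibitors. Of 21 interferon genes, 15 had no read in any library, and 19, Ifng and every listed alpha gene among them, were under 1 FPKM throughout. The 2 that were tested, the lambda interferons Ifnl2 and Ifnl3, were seen almost only in untreated tissue. Ifnl2 (ENSMUSG00000059128, chr7:28508836-28510455, minus strand) had 67, 42 and 48 reads in the untreated libraries, or 5.62, 3.37 and 4.24 FPKM, and 0 in each of the other 6. With a floor of 3 reads per library, it was at least 19.2-fold lower in CNV and at least 18.1-fold lower in BetP-Gel@Ran. Ifnl3 (ENSMUSG00000060747, chr7:28522836-28524322, plus strand) had 72, 43 and 40 reads in untreated, 0 in each CNV library (at least 18.9-fold lower), and 1 read in gel replicate 1. Against the gel group the ratio was 160, with an exact 95% interval of 28.3 to 6365 that covers counting error only.

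Both passed the filter on low values through the 3 untreated libraries alone, so a difference in limma followed from the filter and is not given as support. They are near-identical copies, so how reads divide between them is uncertain, and both lie inside the span of Samd4b, which ran at 8.31 to 12.3 FPKM with no such drop. Ifnb1 is the type I interferon made first by most infected cells. It had 10, 7 and 4 reads in untreated, 0, 3 and 0 in CNV and 0 in each gel library. The ratio of untreated to CNV was 7.71, with an exact 95% interval of 2.30 to 40.4 that covers counting error only. All 3 CNV reads came from CNV replicate 2. With the floor of 3 reads per library, Ifnb1 was at least 2.40-fold lower in BetP-Gel@Ran. It did not pass the filter, so the difference between groups was not tested.

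Of the 6 receptor chains, 4 rose in CNV and 0 fell by limma's adjusted p, with none under an unadjusted p of 0.05 on the lower side. Over all tested genes 22.5% were called higher and 22.1% lower. Ifnar1 averaged 4.41 ± 0.151 FPKM in untreated tissue, 7.37 ± 0.730 with CNV and 5.50 ± 0.225 in the gel libraries (SD, n = 3). Ifngr1 was at 20.2 ± 0.960, 33.2 ± 2.13 and 25.8 ± 2.11 FPKM. Both were called higher in CNV (log2 changes 0.63 ± 0.08 and 0.69 ± 0.08) and lower in the gel libraries than in CNV (-0.36 ± 0.08 and -0.35 ± 0.08). Il10rb and Ifngr2 rose by 0.61 ± 0.08 and 0.59 ± 0.08, whereas Ifnar2 and Ifnlr1, the chain specific to lambda interferon, were not called in CNV. Against untreated, 5 of 6 were higher in the gel libraries, Ifnlr1 included (3.01 ± 0.441 to 4.82 ± 0.264 FPKM), where 16.1% of all tested genes were.

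**Figure D5:**
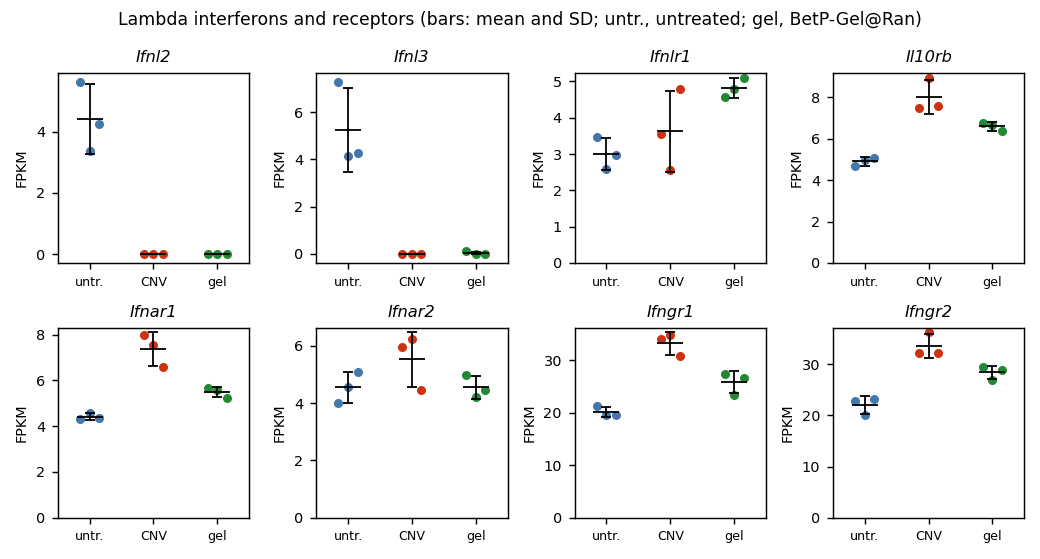
FPKM of the lambda interferons Ifnl2 and Ifnl3 and of the 6 interferon receptor chains, by library; points are libraries, horizontal bars means and whiskers SD over 3 libraries. Ifnl2 and Ifnl3 are at or near 0 in all 6 libraries that are not untreated, and Ifnar1, Ifngr1, Ifngr2 and Il10rb are highest in CNV.

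Of 18 tested signalling and induction genes, 12 rose in CNV and 0 fell by limma's adjusted p, nor was any under an unadjusted p of 0.05 on the lower side. Over all tested genes 22.5% were called higher and 22.1% lower. Tmem173 (STING), the adaptor of cytosolic DNA sensing, went from 1.21 ± 0.365 to 7.19 ± 1.78 FPKM (1.88 ± 0.18, limma adjusted p = 5.69e-05). Myd88, the adaptor of Toll-like receptors, went from 9.28 ± 0.806 to 17.8 ± 0.956 (0.87 ± 0.08), Irf8, a myeloid transcription factor, from 0.792 ± 0.109 to 3.11 ± 0.409 (1.19 ± 0.12), and Tlr7, an RNA sensor, from 0.584 ± 0.0472 to 1.99 ± 0.518 (0.90 ± 0.13). Irf8 and Tlr7 averaged under 1 FPKM in untreated tissue and passed the filter through the other groups. Their higher level in CNV therefore followed in part from the filter and is not given as support. Both are among the 12. In the gel libraries against CNV, 3 of 18 were called lower, Tmem173 (-0.88 ± 0.18), Myd88 (-0.38 ± 0.08) and Irf8 (-0.44 ± 0.12). This compares with 8.27% of all tested genes. In the gel libraries against untreated, 9 were called higher, where 16.1% of all tested genes were.

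Of 8 inhibitors, 5 rose in CNV, against 22.5% of all tested genes. Socs3, which blocks JAK kinases bound to gp130-type receptors, went from 1.68 ± 0.151 to 17.8 ± 4.44 FPKM (log2 change 2.78 ± 0.16, limma adjusted p = 8.00e-06) and Socs1, the inhibitor of interferon receptor JAKs, from 1.26 ± 0.106 to 1.96 ± 0.102 (0.39 ± 0.09). The phosphatase genes Ptpn2 and Ptpn6 rose by 0.40 ± 0.07 and 0.61 ± 0.14. In the gel libraries, relative to CNV, Socs3 was lower at 4.22 FPKM (-1.83, limma adjusted p = 8.07e-04). Socs1 and Ptpn2 were also called lower, and Pias1 was called higher. Of all tested genes, 8.27% were lower and 5.81% higher.

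Markers of myeloid cells moved with these genes. Of 18 macrophage and microglia markers, 17 were called higher in CNV, against 22.5% of all tested genes, led by Lyz2, Csf1r, Ctss and Tyrobp. The 18 summed to 485 to 514 FPKM in the untreated libraries, 1712 to 2528 in the CNV libraries and 947 to 1204 in the gel libraries. None of the 18 was at 0. Of 12 neutrophil markers, 7 were tested and all 7 were called higher in CNV, against 22.5% of all tested genes. The other 5 were not tested. Among them, Ly6g, Elane and Ngp were under 1 FPKM in every library and Mpo was at 0 in all. The sums were 34.7 to 55.6, 477 to 1016 and 30.5 to 160 FPKM in the untreated, CNV and gel libraries. Rod markers were lower in CNV, with sums of 4208 to 5494, 1587 to 1956 and 2058 to 2804 FPKM in the 3 groups in that order. The surface epithelium and cornea, lens and skeletal muscle sums given above were also lower in every CNV library than in every untreated one. So were the Muller glia sums, at 1671 to 1747 FPKM in untreated and 1281 to 1433 in CNV. Of the 9 Muller glia markers, however, 3 were called higher in CNV and 2 lower, against 22.5% and 22.1% of all tested genes. In whole tissue, fewer cells of a type and less RNA per cell cannot be told apart, and the part of these markers in the rise of Ifitm3, Bst2, the receptors and Tmem173, or in the fall of Oas2, Oas3 and the lambda interferons, was not tested.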

How the data were processed

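Poly(A) RNA of 9 libraries was sequenced. The authors deposited 1 table of FPKM per gene; per the submitters' processing notes, genes were counted with HTSeq 0.6.0 on mm10, and the aligner was not given in the sources used here. Per the labels' protocols, the library kit was NEBNext Ultra, which does not mark strand. FPKM times gene length were whole multiples of 1 read in each library for 100% of values (tolerance 0.05), so reads were recovered.

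log2(FPKM + 1) was fitted for 14086 genes that reached 1 FPKM in 3 or more of the 9 libraries with limma 3.58.1 (R 4.3.3, statmod 1.5.0, trend and robust), with 1 mean per group over all libraries. Tests were two-sided, with Benjamini-Hochberg adjustment over all genes within each of 3 comparisons and a threshold of 0.05. Every fold change is on that log2 scale. Exact tests of 3 against 3 were not used.

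Members and lists were chosen with earlier results of these data known. Values by library are given for the 12 called members with the largest change and the highest member of each role; from the other lists up to 4 genes with the smallest p, and any ligand or receptor, are named, and genes outside this rule (such as other members, Pias1 and Samd4b) were chosen after their values were seen. A gene of the signalling list is not reported here. Gene coordinates (mm10) come from the authors' table and equalled GENCODE M21 for 41 of 41 genes checked. Of the members, 11 overlap a gene on the opposite strand. Alternatives were a pseudocount of 0.1, no filter or one of 5 FPKM, quantile normalization, scaling to own read totals, only the 2 groups compared, a replicate block, voom, plain limma, and leaving out each library.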

Additional observations from a re-analysis of the deposited data

How the results depend on the processing

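Among single called members, 421 of the repeats kept direction and call, 99 kept the direction and lost the call, and 0 changed direction. In CNV against untreated, the 5 members called lower became 2 with no filter, 3 with quantile normalization and 2 with own-total scaling of reads, while the 11 higher stayed between 8 and 13; Oas2 and Oas3 were in every count. Own-total scaling also moved the higher share of all called genes to 62.3% and that of members to 13 higher and 2 lower; against untreated, BetP-Gel@Ran then had 13 higher and 4 lower. In BetP-Gel@Ran against CNV, the 2 members called higher became 0 with no filter and 0 with only the 2 groups compared (4 and 3 at an unadjusted limma p under 0.05), against 3 with voom, and the 2 called lower became 4 with voom. In BetP-Gel@Ran against untreated, the 10 called higher became 5 with no filter. Leaving out 1 library gave 10 to 11 higher and 2 to 4 lower in CNV against untreated, 0 to 5 and 1 to 6 in BetP-Gel@Ran against CNV, and 4 to 8 and 4 to 7 in BetP-Gel@Ran against untreated. In the first, the lower count was 2 without untreated replicate 1, untreated replicate 3 or CNV replicate 1, and 3 without CNV replicate 2. In the second, the higher count was 0 without CNV replicate 1 or 2 or gel replicate 2 or 3 (3 to 7 at an unadjusted limma p under 0.05), 1 without gel replicate 1 and 5 without CNV replicate 3; the lower count was 1 without CNV replicate 1 or 2 or gel replicate 2 or 3 and 6 without gel replicate 1. In the third, the higher count was 4 without untreated replicate 2 or gel replicate 3, 5 without untreated replicate 3 or gel replicate 1, and 6 without untreated replicate 1. Leaving out a library thus raised some counts in the second comparison and lowered others. Why the counts moved was not tested for any setting.

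Same-numbered libraries did not deviate together (correlations -0.15 to 0.08), so the numbers do not pair them. With the replicate block, BetP-Gel@Ran against CNV had 1 member higher and BetP-Gel@Ran against untreated had 6. Members with few reads, such as Mx1, Mx2, Cxcl9 and Cxcl10, are limited by depth.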

Other observations

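Of the interferon-inducible genes outside the 39, 31 of 49 tested rose in CNV and 4 fell, with a median log2 change of 0.54. Over all tested genes 22.5% were called higher and 22.1% lower. This list, too, was drawn up with earlier results known, and its difference from the 39 members was not tested. Ifi207, a DNA-binding HIN-200 protein, went from 1.53 to 5.19 FPKM (1.29 ± 0.08, limma adjusted p = 8.00e-06), Ly6e from 107 to 219.7 (1.03 ± 0.08), and the Schlafen genes Slfn5 and Slfn8 from 1.81 to 6.14 (1.34 ± 0.12) and from 0.481 to 2.70 (1.32 ± 0.12). Slfn8, 1 of the 31, averaged under 1 FPKM in untreated tissue, so its higher level in CNV followed in part from the filter. The 4 that fell were Ddx60 (-0.78), Apol9a (-0.82), Apol9b (-0.69) and Oas1c (-0.31). In the gel libraries, relative to CNV, 1 of 49 was called higher, Ddx60, and 9 lower, against 5.81% and 8.27% of all tested genes. Relative to untreated, 25 were higher and 3 lower, where 16.1% and 18.1% of all tested genes were.

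A screen added after the data were examined asked which genes had at least 1 FPKM in all 3 untreated libraries and under 0.1 in all 6 others. It returned 4 genes: Ifnl2, Ifnl3, the lens gene Cryga (9.28, 10.9 and 122.6 FPKM in untreated) and the mitochondrial tRNA mt-Tg (13.9, 13.2 and 21.9 FPKM). The reverse screen returned 1 gene, Gm47015, at 2.34 to 4.51 FPKM in the 6 libraries.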
